A study of Mus musculus with 2 samples.

Results

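The 10 genes described here encode chemokine ligands of mouse: the CC ligands Ccl2, Ccl3, Ccl4, Ccl5, Ccl6 and Ccl9, and the CXC ligands Cxcl1, Cxcl2, Cxcl10 and Cxcl16. They were chosen by gene name, and each matched 1 row of a table of 55401 gene rows. Of the 10, 9 had a mean of 1 FPKM or more over the libraries (FPKM, fragments scaled to transcript length and library depth) and stood among the 12526 genes kept at that minimum, while Cxcl1 lay below it.

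RNA was sequenced from myeloid-derived suppressor cells (MDSCs), immature neutrophil-like and monocyte-like cells that accumulate in tumour-bearing mice and restrain T cells. The cells were taken by magnetic sorting from C57BL/6 mice carrying MC38 tumours, a mouse colon carcinoma line, and were then kept together with MC38 cells for 24 h. One library was labelled LysM-cre, Mettl3fl/fl and the other Mettl3fl/fl, both from mice of 8 weeks and both with the floxed Mettl3 alleles. LysM-cre drives recombination from the lysozyme 2 locus in neutrophils, monocytes and macrophages, so other cells in the sorted fraction would keep the gene. For the LysM-cre-labelled library, 1 label field names MC39 in place of MC38. Whether animals were pooled and which surface marker was used for sorting are not stated in the sources used here. Each genotype had 1 library, so differences have no replicate check and no test was made, and every interval below covers counting error only.

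The libraries held 59393864 counts (the library labelled LysM-cre) and 59506878 counts (floxed control). The targeted gene did not separate them: Mettl3, the catalytic subunit of the enzyme that writes N6-methyladenosine (m6A) on mRNA, stood at 3.92 FPKM in the LysM-cre-labelled library and 4.16 FPKM in the floxed control, and the ratio of its counts, each scaled to the library total (CPM ratio), was 0.945 with a 95% interval of 0.876 to 1.02. A whole-gene value cannot show whether the floxed part of the gene was deleted, so neither loss nor retention of Mettl3 was tested. Group names below follow the label and do not imply loss of Mettl3. Defining MDSC genes were present in both libraries, with Ly6g, a neutrophil surface protein, at 31.3 FPKM in the LysM-cre-labelled library and 44.5 FPKM in the floxed control. The monocyte gene Ly6c2 stood at 122 FPKM in the LysM-cre-labelled library and 137 FPKM in the floxed control. Markers of other cells were present too, among them the macrophage complement gene C1qa (655 FPKM in the LysM-cre-labelled library and 623 FPKM in the floxed control) and the T cell receptor gene Trac (95.8 FPKM, against 91.0 FPKM in the floxed control). The highest level of all listed marker genes was that of Igkc, an immunoglobulin light chain gene of B and plasma cells. Igkc stood at 13257 FPKM in the LysM-cre-labelled library and 14040 FPKM in the floxed control. Epithelial genes, listed as tumour cell markers, were low: of 7, 5 were below 1 FPKM on average. The summed level of the 7 was 4.19 FPKM in the LysM-cre-labelled library and 4.02 FPKM in the floxed control. Cdh1 stood at 1.73 FPKM in the LysM-cre-labelled library and 1.78 FPKM in the floxed control, and Krt18 at 1.43 and 0.837 FPKM. The keratin gene Krt19 had no counts in either library. Whether MC38 cells express these genes was not checked, so the amount of tumour cell RNA is not known.

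Chemokines are small, mostly secreted proteins that bind to G protein-coupled receptors on leukocytes and direct their migration along a gradient. CXC ligands with an ELR motif, such as Cxcl1 and Cxcl2, attract neutrophils through Cxcr2, whereas CC ligands mostly attract monocytes, T cells and eosinophils. In tumours, myeloid cells are both drawn in by chemokines and a major source of them. Many ligand genes sit side by side in the genome and respond quickly to NF-kB or interferon signalling, and several of their mRNAs carry AU-rich elements that speed decay.

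The ligands did not shift together between the libraries. Ccl3 and Ccl4 were lower in the LysM-cre-labelled library by about the same proportion, Cxcl2 and the scarce Cxcl1 were higher, and the most abundant ligand, Ccl6, differed little. Of the 9 ligands kept, 5 were higher (50.3% of all genes kept were) and 4 lower (49.7%). Their log2 ratios of FPKM + 1 had a median of 0.07 and a mean of −0.05, which differ in sign. The median over all 12526 genes kept was 0.00. None of the 9 was at least 2-fold higher (1.31% of all genes kept were) or at least 2-fold lower (1.18% were). At 1.5-fold, 1 of the 9, Ccl3, was lower (3.28% of all genes kept were) and 0 were higher (3.19% were). At the smallest threshold tried, a ratio of 5 to 4, Ccl3 and Ccl4 were lower (7.7% of all genes kept were) and Cxcl2 was higher (8.41% were). The counting interval of the CPM ratio lay above 1 for 3 of the 9 and below 1 for 3, shares near the 30.1% and 29.7% of all genes kept. Summed over all 10 ligands, the level was 749 FPKM in the LysM-cre-labelled library and 736 FPKM in the floxed control.

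**Figure D1:**
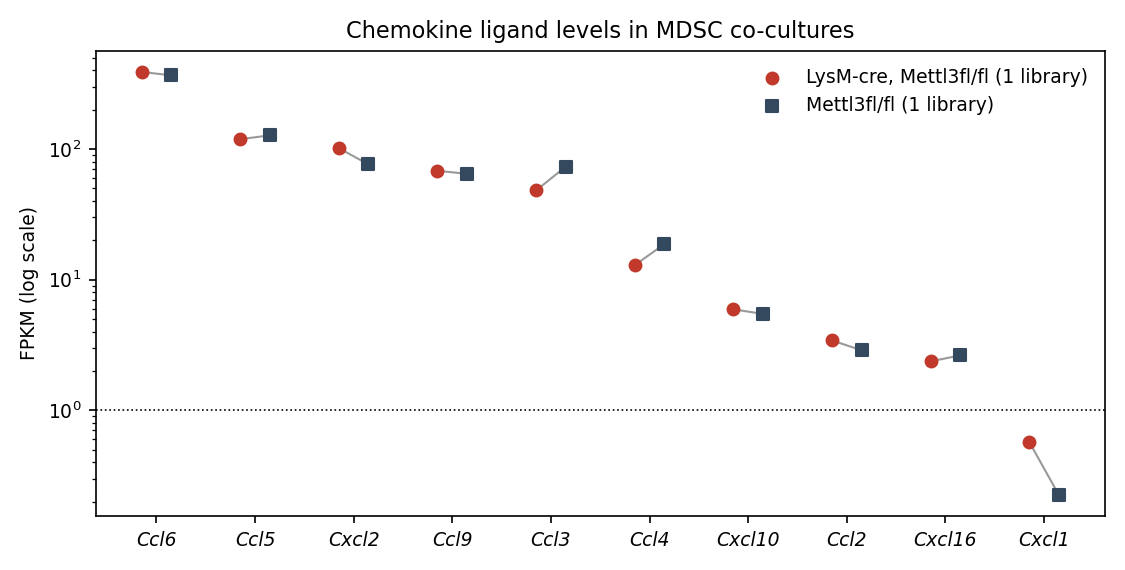
Level of each of the 10 chemokine ligands (FPKM, log axis) in the library labelled LysM-cre, Mettl3fl/fl (red circles) and the Mettl3fl/fl library (dark squares), 1 library each, with genes ordered by mean level and a dotted line at 1 FPKM. Levels run from 388 and 365 FPKM for Ccl6 down to 0.571 and 0.225 FPKM for Cxcl1, and the lines joining the libraries slope most for Ccl3, Ccl4, Cxcl2 and Cxcl1.

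The range of levels was wide and its order was nearly the same in both libraries. Ccl6 alone gave 51.8% of the summed ligand FPKM in the LysM-cre-labelled library and 49.6% in the floxed control, and it ranked 115 of all gene rows by FPKM in the LysM-cre-labelled library and 119 in the floxed control. Ccl5 came next, with 15.8% in the LysM-cre-labelled library and 17.3% in the floxed control. In the LysM-cre-labelled library, Cxcl2, Ccl9 and Ccl3 followed in that order, with separate counting intervals (99.5 to 103, 66.8 to 69.1 and 46.2 to 50.0 FPKM). In the floxed control the order was Cxcl2, Ccl3 and Ccl9, and the intervals of Cxcl2 (74.7 to 77.6 FPKM) and Ccl3 (70.9 to 75.6 FPKM) overlapped. Ccl3 thus stood below Ccl9 in the LysM-cre-labelled library and above it in the floxed control. At the low end, Ccl2 and Cxcl16 had separate intervals in the LysM-cre-labelled library (3.02 to 3.86 and 2.16 to 2.59 FPKM), whereas those in the floxed control overlapped (2.51 to 3.28 and 2.41 to 2.86 FPKM). All other neighbours in the order of levels had separate counting intervals in both libraries.

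The ligands that attract neutrophils were higher in the LysM-cre-labelled library. Cxcl2 (ENSMUSG00000058427, chromosome 5, 90903871 to 90905938, plus strand, mm10), a ligand of Cxcr2 released by activated myeloid cells, stood at 101 FPKM on 13953 counts in the LysM-cre-labelled library and at 76.1 FPKM on 10516 counts in the floxed control. The CPM ratio was 1.33 (95% interval 1.30 to 1.36) and the log2 ratio of FPKM + 1 was 0.41, and 6.00% of all genes kept had a higher ratio. Cxcl1 (ENSMUSG00000029380, chromosome 5, 90891241 to 90893115, plus strand), which acts on the same receptor, was scarce, at 0.571 FPKM on 72 counts in the LysM-cre-labelled library and 0.225 FPKM on 29 counts in the floxed control. Its CPM ratio was the highest of the 10 at 2.49, with a wide interval of 1.60 to 3.97. Low counts often gave such ratios: among 3138 rows with a mean count of 25 to 100, a range chosen after the counts of Cxcl1 were seen, 12.9% had a CPM ratio of 2 or more and 22.2% had an interval above 1. The start sites of Cxcl1 and Cxcl2 lie 12.6 kb apart, and the third gene of this group, Cxcl3, stood at 0.438 FPKM in the LysM-cre-labelled library and 0.366 FPKM in the floxed control.

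The receptor of these ligands and the markers of the cells they attract were on the lower side. Cxcr2 stood at 101 FPKM in the LysM-cre-labelled library and 112 FPKM in the floxed control (CPM ratio 0.902, 95% interval 0.885 to 0.919). Of 12 neutrophil markers, Cxcr2 among them, 10 were lower (49.7% of all genes kept were) and 2 higher in the LysM-cre-labelled library. The CPM interval lay below 1 for 10 of the markers (29.7% of all genes kept) and above 1 for 1 (30.1%). Summed over the 12 markers, levels were 11362 FPKM in the LysM-cre-labelled library and 12948 FPKM in the floxed control. In these bulk libraries fewer cells of a type and less RNA per cell cannot be told apart, and the part of cell mix in the ligand values was not tested.

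The promoters of Cxcl1, Cxcl2 and Cxcl10 are shown because each holds an NF-kB motif, and that of Ccl3, the ligand with the lowest ratio, for comparison. RefSeq promoter windows (GRCm38.p6, the same assembly as mm10) of 300 bases, 250 before the gene start and 50 after it, were found for 6 of the 10 ligands: Ccl3, Ccl6, Ccl9, Cxcl1, Cxcl2 and Cxcl10. Sequences are given 5′ to 3′ on the gene's strand, and capitals mark a match on either strand to GGGA, any 2 bases and TTCC (NF-kB), to GAAA, any 2 bases and GAAA (interferon-stimulated response element), or to TGANTCA (AP-1).
Cxcl1, chr5:90890995-90891294, plus strand: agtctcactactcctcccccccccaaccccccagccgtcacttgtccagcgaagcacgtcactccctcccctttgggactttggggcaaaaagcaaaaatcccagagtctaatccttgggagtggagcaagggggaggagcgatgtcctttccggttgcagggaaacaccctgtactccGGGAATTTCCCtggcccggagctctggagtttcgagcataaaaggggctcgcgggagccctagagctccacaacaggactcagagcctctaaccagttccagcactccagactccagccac
Cxcl2, chr5:90903649-90903948, plus strand: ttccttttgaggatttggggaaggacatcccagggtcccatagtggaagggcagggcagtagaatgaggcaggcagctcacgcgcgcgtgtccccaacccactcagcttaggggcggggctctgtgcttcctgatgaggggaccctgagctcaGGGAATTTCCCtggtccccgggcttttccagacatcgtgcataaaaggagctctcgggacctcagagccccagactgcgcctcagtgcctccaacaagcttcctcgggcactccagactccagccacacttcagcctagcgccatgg
Cxcl10, chr5:92348840-92349139, minus strand: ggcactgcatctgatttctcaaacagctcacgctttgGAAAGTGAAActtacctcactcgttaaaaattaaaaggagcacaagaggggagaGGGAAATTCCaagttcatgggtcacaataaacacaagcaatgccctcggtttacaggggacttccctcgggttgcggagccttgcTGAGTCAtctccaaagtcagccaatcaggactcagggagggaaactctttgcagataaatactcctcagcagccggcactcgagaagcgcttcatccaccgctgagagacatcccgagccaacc
Ccl3, chr11:83649329-83649628, minus strand: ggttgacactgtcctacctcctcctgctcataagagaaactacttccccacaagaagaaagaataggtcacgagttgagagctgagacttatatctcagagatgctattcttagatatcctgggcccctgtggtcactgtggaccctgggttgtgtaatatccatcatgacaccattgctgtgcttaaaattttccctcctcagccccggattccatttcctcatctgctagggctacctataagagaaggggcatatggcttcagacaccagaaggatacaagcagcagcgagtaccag

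The NF-kB letters were found in 3 of the 6 ligand windows (Cxcl1, Cxcl2 and Cxcl10), against 1.47% of all 32851 promoter windows. Cxcl1 and Cxcl2 share the match GGGAATTTCC, which overlaps a second match on the other strand and begins 71 bases before the RefSeq start of Cxcl1 and 97 before that of Cxcl2. In Cxcl10 the match GGGAAATTCC begins 159 bases before the start, and the interferon element GAAAGTGAAA 213 bases before it. The interferon element was in 1 of the 6 windows and in 3.44% of all windows. The AP-1 letters were in 2 of the 6 (Cxcl10 and Ccl9) and in 7.81% of all windows. The 3 ligands with the NF-kB letters had CPM ratios of 2.49 (Cxcl1), 1.33 (Cxcl2) and 1.08 (Cxcl10). The 3 without them had ratios of 0.656 (Ccl3), 1.06 (Ccl6) and 1.05 (Ccl9). Cxcl1 is below the minimum of 1 FPKM. The counting interval of Cxcl10 (0.984 to 1.19) held 1 and overlapped those of Ccl6 and Ccl9. The other ligands had no window, and a link between the NF-kB letters and the ratios was not tested. A match is a description of letters and shows no binding in these cells.

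Ccl3 and Ccl4 were the ligands with the lowest ratios. Both encode macrophage inflammatory proteins, and Ccl3 acts through Ccr1. Ccl3 (ENSMUSG00000000982, chromosome 11, 83647844 to 83649355, minus strand) stood at 48.0 FPKM on 2454 counts in the LysM-cre-labelled library and at 73.2 FPKM on 3746 counts in the floxed control. The CPM ratio was 0.656 (95% interval 0.624 to 0.691) with a log2 ratio of FPKM + 1 of −0.60, and 3.15% of all genes kept had a lower ratio. Ccl4 (ENSMUSG00000018930, chromosome 11, 83662584 to 83664683, plus strand) stood at 12.9 FPKM on 567 counts in the LysM-cre-labelled library and 18.7 FPKM on 825 counts in the floxed control. Its CPM ratio was 0.689 (95% interval 0.618 to 0.767), so that its interval overlapped that of Ccl3. Ccl3 exceeded Ccl4 by 3.73 times in the LysM-cre-labelled library and by 3.92 times in the floxed control on the FPKM scale. The start sites lie 13.2 kb apart on opposite strands.

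**Figure D2:**
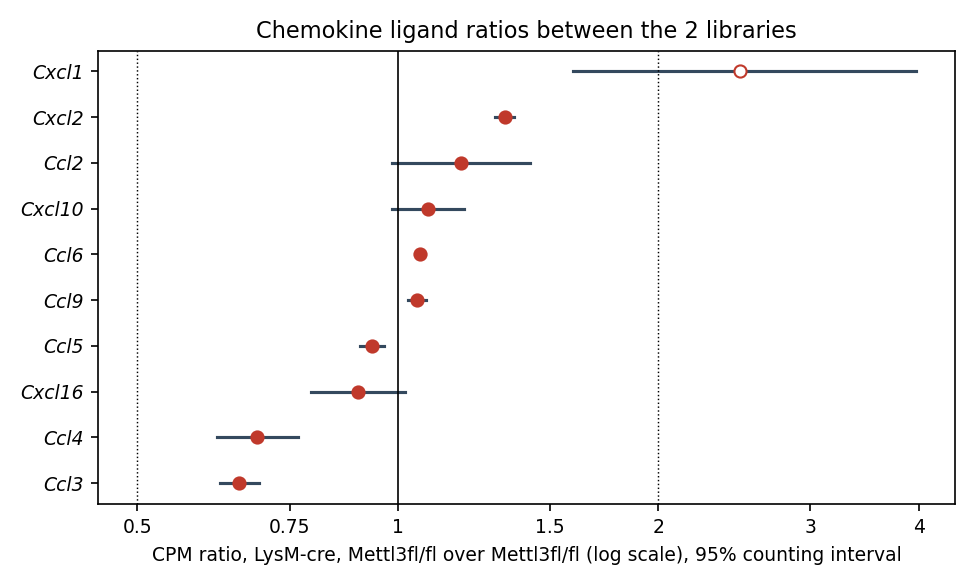
CPM ratio of the library labelled LysM-cre, Mettl3fl/fl over the Mettl3fl/fl library (log axis) for each of the 10 ligands, with bars for the exact 95% counting interval, dotted lines at 0.5 and 2, and an open circle for Cxcl1, which is below 1 FPKM on average. Ccl3 (0.656) and Ccl4 (0.689) stand at the low end and Cxcl2 (1.33) and Cxcl1 (2.49) at the high end.

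Ccl5, a ligand of Ccr1 and Ccr3 made by T cells, NK cells and myeloid cells, differed little. Ccl5 (ENSMUSG00000035042, chromosome 11, 83525778 to 83530518, minus strand) stood at 119 FPKM on 7587 counts in the LysM-cre-labelled library and 127 FPKM on 8144 counts in the floxed control (CPM ratio 0.933, 95% interval 0.905 to 0.963). Of all genes kept, 55.5% lay at least as far from a log2 ratio of 0. T and NK cell markers had 6 higher and 4 lower of the 10 kept from 13 listed, near the shares of all genes kept. The CPM interval lay above 1 for 5 of the 10 (30.1% of all genes kept) and below 1 for 1 (29.7%). Their summed levels were 355 FPKM in the LysM-cre-labelled library and 339 FPKM in the floxed control. How much of Ccl5 came from such cells was not tested. The receptor Ccr1 was also at a slightly lower level in the LysM-cre-labelled library, at 58.5 FPKM there and 67.0 FPKM in the floxed control (CPM ratio 0.873, 95% interval 0.851 to 0.895).

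Ccl6 and Ccl9, rodent CC ligands that act on Ccr1 and are made by myeloid cells without stimulation, were each a little higher in the LysM-cre-labelled library. Ccl6 (ENSMUSG00000018927, chromosome 11, 83587882 to 83593087, minus strand) stood at 388 FPKM on 46456 counts in the LysM-cre-labelled library and 365 FPKM on 43814 counts in the floxed control (CPM ratio 1.06, 95% interval 1.05 to 1.08). Ccl9 (ENSMUSG00000019122, chromosome 11, 83572919 to 83578636, minus strand) stood at 67.9 FPKM on 13792 counts in the LysM-cre-labelled library and 64.5 FPKM on 13123 counts in the floxed control (CPM ratio 1.05, 95% interval 1.03 to 1.08). These narrow intervals come from the high counts: most genes kept lay at least as far from a log2 ratio of 0 (59.2% for Ccl6 and 64.6% for Ccl9). Ccl6 exceeded Ccl9 on the FPKM scale by 5.71 times in the LysM-cre-labelled library and 5.66 times in the floxed control. Macrophage markers were higher in the LysM-cre-labelled library for 10 of 11 genes (50.3% of all genes kept were). For 9 of them the CPM interval lay above 1 (30.1% of all genes kept). Their summed levels were 2749 FPKM in the LysM-cre-labelled library and 2466 FPKM in the floxed control. The part of macrophages in the Ccl6 and Ccl9 values was not tested.

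Within the chromosome 11 cluster Ccl3 and Ccl4 had lower ratios than their neighbours, and a link between position and ratio was not tested. In order along the chromosome, Ccl5, Ccl9 and Ccl6 had log2 ratios of FPKM + 1 of −0.10, 0.07 and 0.09, and Ccl3 and Ccl4, which lie 56.3 kb and more beyond the start of Ccl6, had −0.60 and −0.50. Only 1 of the 5 overlaps a row with counts, Ccl6, whose opposite-strand partner E230016K23Rik held 359 counts in the LysM-cre-labelled library and 333 counts in the floxed control. Elsewhere, Cxcl10 overlaps Art3 on the opposite strand (67 counts, against 50 counts in the floxed control) and Cxcl16 overlaps Zmynd15 (58 counts, against 87 counts in the floxed control).

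**Figure D3:**
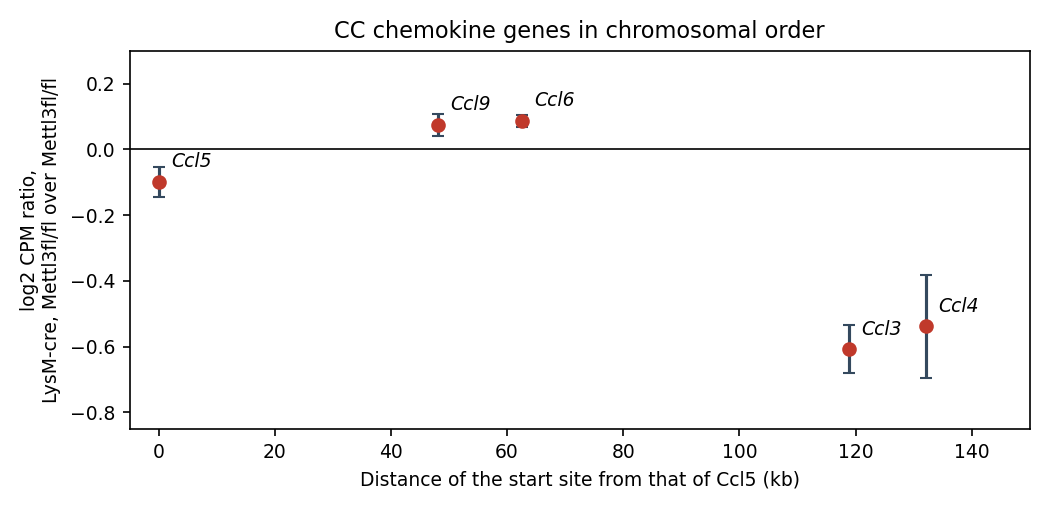
log2 CPM ratio of the library labelled LysM-cre, Mettl3fl/fl over the Mettl3fl/fl library for the 5 CC ligands of the chromosome 11 cluster, against the distance of each start site from that of Ccl5 in kb, with bars for the 95% counting interval. Ccl5, Ccl9 and Ccl6 lie near 0, and Ccl3 and Ccl4 lie together below them.

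Ccl2, which recruits monocytes through Ccr2, was present at a low level. Ccl2 (ENSMUSG00000035385, chromosome 11, 82035571 to 82037453, plus strand) stood at 3.42 FPKM on 260 counts in the LysM-cre-labelled library and 2.87 FPKM on 220 counts in the floxed control. The CPM ratio was 1.18 and its interval held 1 (0.986 to 1.42), so a difference of this size was not detectable at this depth. Its receptor Ccr2 was more abundant and higher in the LysM-cre-labelled library, at 43.7 FPKM there and 34.5 FPKM in the floxed control (CPM ratio 1.26, 95% interval 1.24 to 1.29). Monocyte markers, Ccr2 among them, were mixed, with 7 of 10 higher (50.3% of all genes kept were) and 3 lower (49.7% were).

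Cxcl10, an interferon-inducible ligand that attracts activated T cells through Cxcr3, was near the same level in both libraries. Cxcl10 (ENSMUSG00000034855, chromosome 5, 92346638 to 92348882, minus strand) stood at 5.92 FPKM on 891 counts in the LysM-cre-labelled library and 5.46 FPKM on 824 counts in the floxed control (CPM ratio 1.08, 95% interval 0.984 to 1.19). Its neighbour Cxcl9, also a Cxcr3 ligand, stood at 8.56 FPKM in the LysM-cre-labelled library and 7.23 FPKM in the floxed control (CPM ratio 1.18, 95% interval 1.10 to 1.27). The third ligand of that receptor, Cxcl11, had 23 counts in the LysM-cre-labelled library and 27 in the floxed control. Cxcr3 itself stood at 23.6 FPKM in the LysM-cre-labelled library and 21.7 FPKM in the floxed control. The type I interferon list leaned the other way. Its CPM interval lay below 1 for 19 of 24 genes (29.7% of all genes kept) and above 1 for 1 (30.1%). The list was lower in the LysM-cre-labelled library for 22 genes (49.7% of all genes kept were) and higher for 2 (median log2 ratio −0.19). Its largest differences were in Oasl2 (23.7 FPKM in the LysM-cre-labelled library and 52.2 FPKM in the floxed control), Ifit2 (11.9 FPKM, against 17.1 FPKM in the floxed control), Irf9 (17.7 FPKM, against 24.9 FPKM in the floxed control) and Zbp1 (30.6 FPKM, against 40.1 FPKM in the floxed control). The interferon gamma list had 7 higher and 10 lower of 17, and Irf1, a transcription factor induced by interferon gamma, was the member farthest from level, at 62.0 FPKM in the LysM-cre-labelled library and 33.0 FPKM in the floxed control, followed by Iigp1 (4.87 FPKM, against 3.71 FPKM in the floxed control) and Ciita (8.49 FPKM, against 10.7 FPKM in the floxed control).

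Cxcl16, made as a membrane-bound ligand of Cxcr6 that also takes up oxidised lipoprotein, had a low level. Cxcl16 (ENSMUSG00000018920, chromosome 11, 70453983 to 70459984, minus strand) stood at 2.37 FPKM on 478 counts in the LysM-cre-labelled library and 2.63 FPKM on 532 counts in the floxed control (CPM ratio 0.900, 95% interval 0.794 to 1.02). Its receptor Cxcr6 stood at 1.77 FPKM in the LysM-cre-labelled library and 2.47 FPKM in the floxed control (CPM ratio 0.720, 95% interval 0.605 to 0.856). The proteases that release Cxcl16 from the membrane, Adam10 (23.2 FPKM, against 25.9 FPKM in the floxed control) and Adam17 (15.9 FPKM, against 16.2 FPKM in the floxed control), had CPM ratios of 0.895 (95% interval 0.867 to 0.923) and 0.983 (95% interval 0.952 to 1.01). The processing list they belong to had 6 higher and 6 lower of 12 kept from 14 listed, and its largest differences were in the granule proteases Prtn3 (9.47 FPKM in the LysM-cre-labelled library and 4.36 FPKM in the floxed control), Elane (23.6 FPKM, against 11.9 FPKM in the floxed control) and Ctsg (4.51 FPKM, against 2.89 FPKM in the floxed control), and in Rhbdf2 (12.4 FPKM, against 21.2 FPKM in the floxed control), which controls Adam17.

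**Figure D4:**
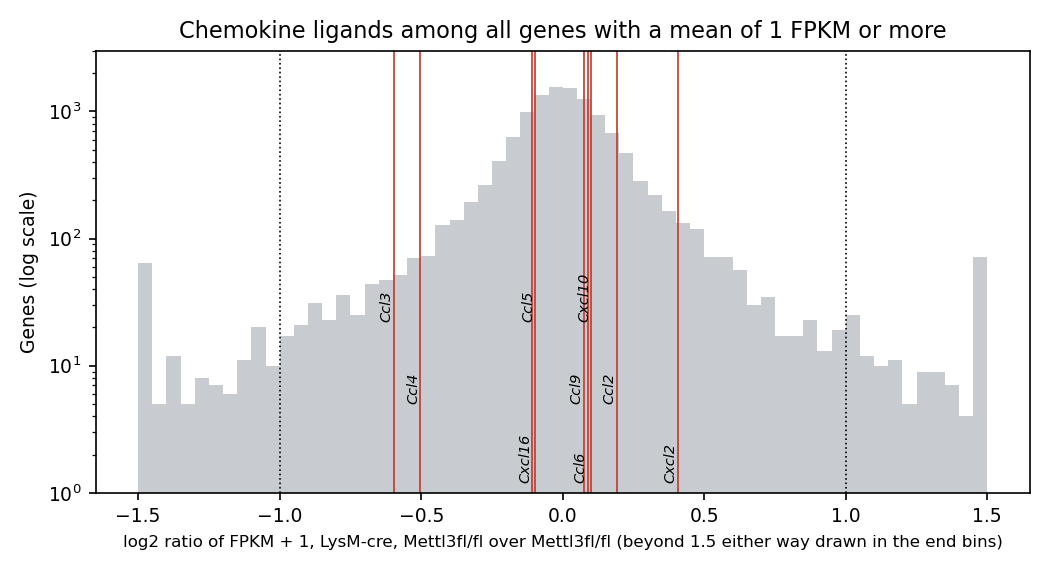
Histogram of the log2 ratio of FPKM + 1, the library labelled LysM-cre, Mettl3fl/fl over the Mettl3fl/fl library, for all 12526 genes kept (log count axis), with red lines at the 9 chemokine ligands kept and dotted lines at 2-fold. The lines of Ccl3 (−0.60), Ccl4 (−0.50) and Cxcl2 (0.41) stand away from the centre and inside the 2-fold lines, and the other 6 lie between −0.11 and 0.19.

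Of 28 other chemokine ligands listed, 4 reached a mean of 1 FPKM. Besides Cxcl9 these were Xcl1, a ligand from T and NK cells (8.23 FPKM in the LysM-cre-labelled library and 8.89 FPKM in the floxed control), Ccl24, an eosinophil attractant that acts on Ccr3 (3.61 FPKM, against 1.86 FPKM in the floxed control, CPM ratio 1.94, 95% interval 1.60 to 2.36), and the platelet chemokine Pf4 (0.838 FPKM, against 1.34 FPKM in the floxed control). The remaining 24 were below the minimum, and 8 of those had no counts in either library. The receptor Ccr3 was also higher in the LysM-cre-labelled library, at 86.5 FPKM there and 63.0 FPKM in the floxed control (CPM ratio 1.37, 95% interval 1.34 to 1.40). Of 8 eosinophil markers, Ccr3 among them, 7 had a CPM interval above 1 (30.1% of all genes kept), and Ear1 had 80 counts in each library. The list had summed levels of 895 FPKM in the LysM-cre-labelled library and 672 FPKM in the floxed control, and its part in the Ccl24 value was not tested. Over the 24 receptor genes listed, 16 were kept, with 7 higher and 9 lower and a median log2 ratio of −0.03. Only Cx3cr1, the fractalkine receptor of monocytes, passed 2-fold (61.6 FPKM, against 6.16 FPKM in the floxed control). The non-signalling receptors that bind these ligands were scarce: Ackr2, which removes inflammatory CC ligands, had 23 counts in the LysM-cre-labelled library and 136 counts in the floxed control, and Ackr1 had 52 counts in the LysM-cre-labelled library and 32 in the floxed control. The chemerin-binding receptor Ccrl2 was close in level (28.0 FPKM in the LysM-cre-labelled library and 28.8 FPKM in the floxed control).

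Genes that respond to NF-kB, as many ligand genes do, were mixed. Of 22 NF-kB response genes, 21 were kept, of which 14 were on the higher side and 7 on the lower (median log2 ratio 0.04). The CPM interval lay above 1 for 10 (30.1% of all genes kept) and below 1 for 5 (29.7% of all genes kept). The summed level was 1368 FPKM in the LysM-cre-labelled library and 1372 FPKM in the floxed control. The members farthest from level, all higher, were the stress gene Ier3 (17.9 FPKM in the LysM-cre-labelled library and 11.1 FPKM in the floxed control), the cytokine gene Il1a (10.9 FPKM, against 7.88 FPKM in the floxed control), the inhibitor gene Nfkbie (11.6 FPKM, against 9.19 FPKM in the floxed control) and the subunit gene Rela (37.2 FPKM, against 29.9 FPKM in the floxed control). Tnf was close in level (7.75 FPKM, against 7.62 FPKM in the floxed control).

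**Figure D5:**
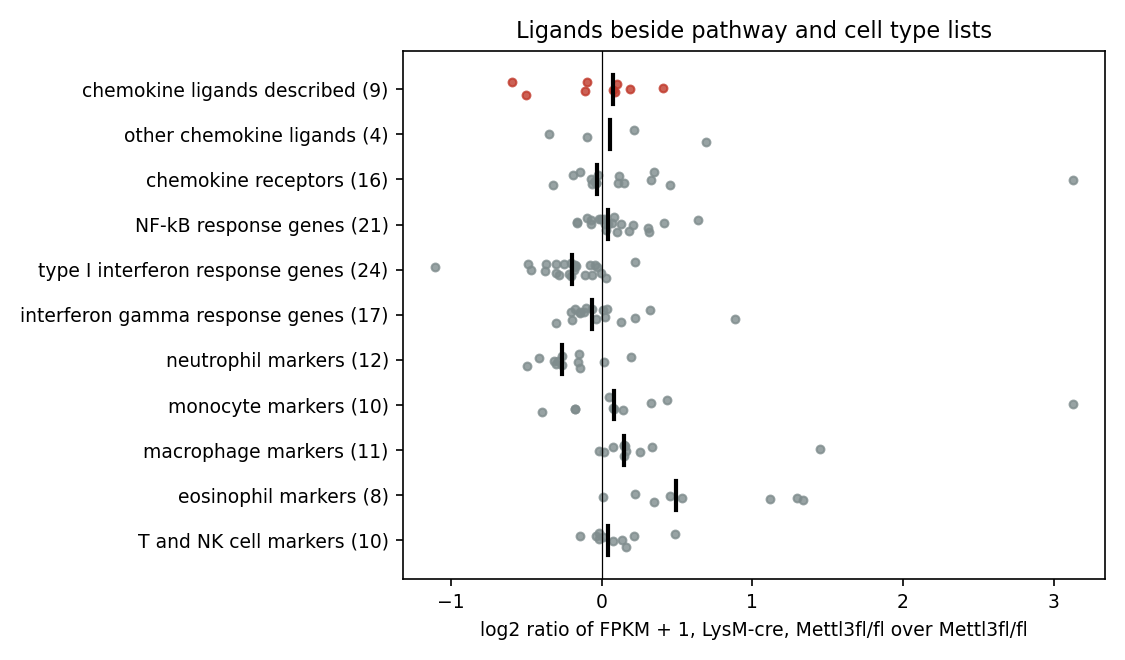
log2 ratio of FPKM + 1, the library labelled LysM-cre, Mettl3fl/fl over the Mettl3fl/fl library, for each gene kept (points, spread vertically for legibility) in the chemokine ligands and 10 other lists, with a black bar at each median and the number of genes in brackets. The 9 ligands spread from −0.60 to 0.41 around a median of 0.07, while the type I interferon (−0.19) and neutrophil (−0.26) medians lie below 0 and the eosinophil median (0.49) above it.

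The 3′ ends of the ligand mRNAs differ in AU-rich letters. In the last 300 bases of the longest protein-coding transcript (GENCODE M21, GRCm38), ATTTA was present in 8 of the 10 ligands and in 40.8% of 10124 genes kept that had such a transcript. Ccl3 had 5 copies, and 0.247% of those genes had as many or more, while Cxcl2 had 3 copies (4.41%). Ccl4, Ccl6 and Cxcl10 had 2 copies, Ccl2, Cxcl1 and Cxcl16 had 1, and Ccl5 and Ccl9 had 0. The longer form TATTTAT was found once each in Ccl3, Ccl4, Cxcl1 and Cxcl2 (4 of 10), and in 9.34% of the genes. These are also the 4 ligands whose CPM ratios lay farthest from 1, in both directions, which was noticed after the values were seen. Cxcl1 among them is below the minimum of 1 FPKM, and a link between these letters and the ratios was not tested. The m6A consensus GGACT was in 5 of the 10 windows (Ccl2, Ccl3, Ccl9, Cxcl1 and Cxcl16) and in 24.3% of the genes. Adjacent ATTTA copies after the stop codon, in capitals, are shown for Ccl3 and Cxcl2 because these held the most.
Ccl3, chr11:83648085-83648094, minus strand: ATTTAATTTA
Cxcl2, chr5:90905888-90905896, plus strand: ATTTATTTA

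Genes that act on such elements differed in both directions. Of 11 AU-rich decay factors, the LysM-cre-labelled library was higher for 6 and lower for 5 (median log2 ratio 0.01). The CPM interval lay above 1 for 3 (30.1% of all genes kept), below 1 for 4 (29.7% of all genes kept) and held 1 for 4. Zfp36, which binds AU-rich elements and speeds decay, stood at 596 FPKM in the LysM-cre-labelled library and 585 FPKM in the floxed control, and the members farthest from level were Tia1 (1.86 FPKM, against 2.90 FPKM in the floxed control), Zfp36l1 (71.1 FPKM, against 85.8 FPKM in the floxed control), Zfp36l2 (302 FPKM, against 338 FPKM in the floxed control) and Elavl1 (5.91 FPKM, against 5.34 FPKM in the floxed control). The 8 m6A writer genes had 4 higher and 4 lower with a median of −0.01.

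Lists of cells that could add ligand RNA had these counts. Dendritic cell markers had 3 higher and 4 lower of 7 kept, while their summed level was 344 FPKM in the LysM-cre-labelled library and 301 FPKM in the floxed control. B and plasma cell markers had 1 higher (50.3% of all genes kept were) and 8 lower (49.7% were) of 9. The CPM interval lay above 1 for 1 of the 9 (30.1% of all genes kept) and below 1 for 6 (29.7%). The genes of that list past 2-fold went opposite ways: Jchain, which joins immunoglobulin polymers, stood at 555 FPKM in the LysM-cre-labelled library and 255 FPKM in the floxed control. The immunoglobulin heavy chain gene Ighm stood at 1360 FPKM in the LysM-cre-labelled library and 2848 FPKM in the floxed control. Platelet markers had 1 higher and 1 lower of 2 kept, and epithelial markers likewise had 1 and 1. Of the fibroblast and endothelial markers 1 was kept and was higher, and none of the 6 mast cell and basophil markers reached the minimum.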

How the data were processed

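MDSC libraries were compared by the genotype in the labels. The submitters' processing notes name cutadapt 1.9, HISAT2 2.0.4 and StringTie 1.3.4d, with edgeR, DESeq2 and build mm10, but no role or setting of any of them. Libraries were made from poly(A) RNA with dUTP marking of the second strand, per the labels' protocols; whether counting used strand, and how it treated multi-mapping reads, is not given. The authors deposited whole-number counts and FPKM for each gene row. The FPKM of 0.0001 that stood where the count was 0 was read as 0. Another 8 columns, of 4 libraries without labels, stayed out.

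The minimum for keeping a gene was a mean of 1 FPKM. The log2 ratio was taken on FPKM + 1, LysM-cre-labelled library over floxed control, which understates differences of low genes. CPM ratios carry an exact 95% (Clopper-Pearson) interval and FPKM levels an exact Poisson interval; both cover counting error only, since reads are not independent molecules. Calls used fixed sizes, since 1 library per genotype allows no test, and p-values were not computed. The 10 ligands, 19 other lists (235 genes) and the rule for named genes (all ligands, Mettl3, other ligands kept, receptors of the ligands and the binding protein Ccrl2, up to 4 genes per list with the largest ratios) were chosen with earlier results of these data known. Some genes that the rule names are not reported here. Named outside the rule, after their values were seen, were C1qa, Trac, Igkc, Ly6c2, Krt19, Tnf, Zfp36, Adam10, Adam17, Ear1, Cxcl3, Cxcl11 and the overlapping rows. No gene was ranked by likeness of pattern, which 2 libraries do not allow. Ccl3 and Ccl4, Ccl6 and Ccl9, and Cxcl1 and Cxcl2 are related in sequence, so shared reads are possible. The CPM ratio, its interval and the 2-fold call were tested on simulated Poisson counts, which hold counting error only. Other steps were not tested this way. Software was Python 3.11.15 with scipy 1.17.1, matplotlib 3.10.9, pandas 2.3.3 and numpy 2.4.6; TMM factors came from edgeR 4.0.16 in R 4.3.3.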

Additional observations from a re-analysis of the deposited data

How the results depend on the processing

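Each of the 10 ligands and Mettl3 kept the sign of its log2 ratio under TPM, TMM and median-ratio scaling. Summing a related pair could not change a sign, since both genes of each pair already had the same sign. The other alternatives were pseudocounts of 0.1 and 5 FPKM, no minimum and a minimum of 5 FPKM, which cannot change a sign. No ligand overlaps another row on the same strand, so summing such rows could not change the ligand ratios. The ratio of Mettl3 was also the same under that setting. The ratio of Ccl3 ran from −0.62 to −0.56, that of Ccl4 from −0.58 to −0.41 and that of Cxcl2 from 0.39 to 0.41. Cxcl1, at 0.398 FPKM on average, ran from 0.09 at a pseudocount of 5 to 1.05 at 0.1. No ligand kept reached 2-fold under these settings. At 1.5-fold, 1 was lower (0 at a pseudocount of 5), and at 5 to 4, 2 were lower and 1 was higher. The median of the 9 kept was 0.07, while the mean was −0.050. Without Ccl3 and Ccl4, which had the lowest ratios, the median and the mean of the other 7 were both 0.09. Leaving out the lowest values can only raise the mean, so this is a description and no check. No paired analysis was possible because each genotype had 1 library, and none could be left out. At this depth the CPM interval held 1 for Ccl2, Cxcl10 and Cxcl16.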

Other observations

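Of the 24 other chemokine ligands below 1 FPKM, 8 had counts in both libraries and 8 in 1 library, and the genes named here were chosen after their values were seen. Cxcl5 (a Cxcr2 ligand), Ppbp (a platelet chemokine) and Ccl21a (a lymphoid tissue ligand of Ccr7) had 29, 22 and 12 counts in the LysM-cre-labelled library and 0 in the floxed control. Ccl8, a monocyte attractant, had 0 counts in the LysM-cre-labelled library and 25 in the floxed control. Ccl21a has near-identical copies, so its value is uncertain. Ccl22, a Ccr4 ligand of dendritic cells and macrophages, had 93 counts in the LysM-cre-labelled library and 38 in the floxed control (CPM ratio 2.45, 95% interval 1.66 to 3.68). Cxcl13, a B cell attractant, had 24 counts in the LysM-cre-labelled library and 72 in the floxed control (CPM ratio 0.334, 95% interval 0.201 to 0.537).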
